A study of Homo sapiens with 6 samples.

Results

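Histone genes of the replication-dependent and linker kind were compared between SNU-449 cells labelled as overexpressing USP48 and cells labelled as carrying an empty vector. Genes were taken by symbol alone, as those beginning with H1-, H2AC, H2BC, H3C or H4C and a number, wherever a probe set of the array named that gene and no other. This gave 50 of 19775 measured genes, read by 58 probe sets: 46 protein-coding histone genes, 3 pseudogenes (H1-9P, H2AC5P and H4C10P) and 1 antisense RNA (H1-10-AS1). The 46 histone genes comprised 9 of class H1, 8 of H2A, 14 of H2B, 7 of H3 and 8 of H4, and RefSeq lists 74 coding genes whose symbols fit. Each gene was represented by its brightest probe set.

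SNU-449 is a human hepatocellular carcinoma line. Both groups are the same line in the same medium with serum and antibiotics, and the genotype labels are Ctrl and USP48 OE. Per the treatment protocol, a USP48 lentivirus was followed by puromycin selection for stably expressing cells, while the titles speak of transfection with vector or with USP48. There were 3 arrays per group, and nothing says that they held separate cultures, so p-values measure the spread between these arrays only, which may be technical. Neither the promoter of the construct, the number of clones nor the age of the cultures is given in the sources used here.

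Core histones H2A, H2B, H3 and H4 form the spool of the nucleosome, and linker histone H1 binds where DNA enters and leaves it. Most of these genes lie in clusters and are transcribed mainly in S phase, and their mRNAs end in a stem-loop instead of a poly(A) tail. The exceptions in expression here are H1-10, which is expressed throughout the cell cycle, and the germ-line histones H1-6, H1-7, H1-8 and H2BC1. Of these, H1-6 and H2BC1 still lie among the clustered genes of chromosome 6. Standard Affymetrix labelling starts from an oligo-dT primer, so stem-loop mRNAs are caught poorly and polyadenylated forms of the same genes better; the part this played in the values was not tested. USP48 is a ubiquitin-specific protease that has been described as acting on ubiquitylated H2A.

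USP48 was not called higher by any of its 5 probe sets, of which 2 were lower (log2 differences −0.82 and −0.63) and 3 did not pass. Whether they can read the introduced RNA is not given in the sources used here, so the groups are called by their labels throughout. Hepatocyte markers were low for a liver line: 5 of 8 measured, ALB among them, lay under the median of every array throughout. The epithelial keratin KRT18 and the mesenchymal filament VIM were bright. KRT8 and EPCAM of the epithelial list and CDH2 and FN1 of the mesenchymal list also lay above the median of every array. The rest did not: 2 of 5 epithelial (KRT19 and CDH1) and 2 of 5 mesenchymal markers (SPARC and COL1A2) lay under it. None of the 8 hepatocyte markers was called, nor any of 4 leukocyte markers. Called lower were 2 of 5 epithelial markers (CDH1 and EPCAM), 2 of 5 mesenchymal markers (VIM and CDH2) and 1 of 4 endothelial markers (CDH5). The mesenchymal marker FN1 was called higher (log2 difference 1.48). Over all genes 15.7% were higher and 14.1% lower. Averaging probe sets ended the calls of CDH1 and VIM (limma adjusted p = 0.064 and 0.056). The hybridization controls, labelled RNAs added before hybridization, averaged 9.75 to 9.83 in the empty vector arrays and 10.02 to 10.21 in the USP48-labelled arrays. The GAPDH 5′ minus 3′ log2 signal, a sign of RNA integrity, ran from −0.44 to −0.32 in the empty vector arrays and was −0.51, −0.45 and −1.31 in USP48-labelled replicates 1, 2 and 3. For ACTB the 5′ signal lay far under the 3′ signal on every array. Its difference ran from −3.70 to −3.26 in the empty vector arrays and was −3.88, −3.44 and −4.14 in the USP48-labelled ones.

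The promoter sequences are shown first for the H1 genes that fell and for H1-10, which rose. Whether any motif in them has a part in the differences was not tested. Each run is the 190 bases that end just before the annotated RefSeq start (build GRCh38.p14), 5′ to 3′ on the strand of the gene. Capitals mark exact matches on either strand to 4 motifs. They are the H1 box, with the letters AAACACA; the CCAAT box, spelled as its name says; the TATA box, here TATAAA; and the octamer found in H2B promoters, ATTTGCAT. None contains another.

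H1-1, chr6:26017788-26017977, minus strand: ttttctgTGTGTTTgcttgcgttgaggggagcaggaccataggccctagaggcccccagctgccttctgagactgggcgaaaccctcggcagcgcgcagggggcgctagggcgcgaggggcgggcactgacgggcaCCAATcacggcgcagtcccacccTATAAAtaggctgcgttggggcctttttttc

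H1-2, chr6:26056471-26056660, minus strand: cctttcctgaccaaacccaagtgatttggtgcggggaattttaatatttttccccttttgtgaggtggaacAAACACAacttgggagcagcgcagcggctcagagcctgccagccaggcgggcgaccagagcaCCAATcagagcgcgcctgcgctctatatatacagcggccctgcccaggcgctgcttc

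H1-3, chr6:26234988-26235177, minus strand: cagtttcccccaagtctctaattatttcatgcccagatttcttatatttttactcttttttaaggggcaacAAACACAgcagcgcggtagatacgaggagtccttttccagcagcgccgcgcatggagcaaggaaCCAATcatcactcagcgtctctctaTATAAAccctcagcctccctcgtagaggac

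H1-4, chr6:26156139-26156328, plus strand: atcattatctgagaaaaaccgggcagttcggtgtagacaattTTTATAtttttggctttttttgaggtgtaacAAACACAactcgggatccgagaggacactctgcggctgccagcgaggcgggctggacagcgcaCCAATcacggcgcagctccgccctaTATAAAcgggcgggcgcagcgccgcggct

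H1-5, chr6:27867589-27867778, minus strand: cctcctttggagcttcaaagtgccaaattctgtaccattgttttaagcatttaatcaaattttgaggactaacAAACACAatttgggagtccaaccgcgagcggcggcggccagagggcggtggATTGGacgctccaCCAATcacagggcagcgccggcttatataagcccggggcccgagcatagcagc

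H1-10, chr3:129316287-129316476, minus strand: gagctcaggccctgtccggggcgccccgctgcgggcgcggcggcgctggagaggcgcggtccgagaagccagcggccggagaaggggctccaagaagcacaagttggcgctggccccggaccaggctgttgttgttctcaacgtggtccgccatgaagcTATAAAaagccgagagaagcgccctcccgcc

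For comparison, the same stretch is given for H2AC6, H2BC5 and H2BC9, core histone genes called higher below.

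H2AC6, chr6:26123982-26124171, plus strand: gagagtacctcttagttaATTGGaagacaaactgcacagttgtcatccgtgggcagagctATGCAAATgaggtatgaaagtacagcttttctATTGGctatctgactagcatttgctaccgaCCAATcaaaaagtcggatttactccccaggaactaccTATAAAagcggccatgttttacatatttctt

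H2BC5, chr6:26157931-26158120, plus strand: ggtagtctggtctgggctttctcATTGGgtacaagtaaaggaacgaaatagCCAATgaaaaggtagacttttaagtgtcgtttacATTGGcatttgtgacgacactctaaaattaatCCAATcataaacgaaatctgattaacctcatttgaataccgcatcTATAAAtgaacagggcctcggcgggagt

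H2BC9, chr6:26251424-26251613, plus strand: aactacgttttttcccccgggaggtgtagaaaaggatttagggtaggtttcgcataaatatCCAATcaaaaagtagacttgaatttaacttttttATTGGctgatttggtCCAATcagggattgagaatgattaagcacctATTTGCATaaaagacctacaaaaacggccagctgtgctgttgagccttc

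The H1 box was found upstream of H1-1, H1-2, H1-3, H1-4 and H1-5, that is in 5 of 5, and of 4.82% of all 35116 promoters of the table over the 250 bases searched. In H1-2 and H1-3 it began 119 bases before the start, in H1-4 and H1-5 117 bases before it, and in H1-1 it lay on the opposite strand, 183 bases before it. Further copies outside the printed stretch began 242 bases upstream in H1-2 and 226 in H1-5. Of the other H1 genes, the germ-line H1-6 and H1-7 held the letters and H1-8 and H1-10 did not, and no H2A, H2B, H3 or H4 promoter among the measured genes held them. CCAAT was present in all 5 of H1-1 to H1-5, 8 of 8 H2A, 13 of 13 H2B and 6 of 6 H3 promoters, in 2 of 7 H4 promoters and in 32.0% of all promoters. The octamer was present in 6 of 8 H2A and 10 of 13 H2B promoters and in 1.63% of all. TATAAA was present in 3 of the H1-1 to H1-5 promoters, in that of H1-10 and in 10.7% of all. It was also in 5 of 8 H2A, 11 of 13 H2B, 4 of 6 H3 and 4 of 7 H4 promoters. These counts take any position and strand: the only TATAAA matches of H2BC4, H2BC6, H2BC14, H2BC17, H2AC8 and H3C6 lay 152 to 220 bases before the start. Promoters were found for 43 of the 46 genes, and H2BC12L, H3C11 and H4C1 had no entry. A match is a string of letters and says nothing of what binds there.

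**Figure D1:**
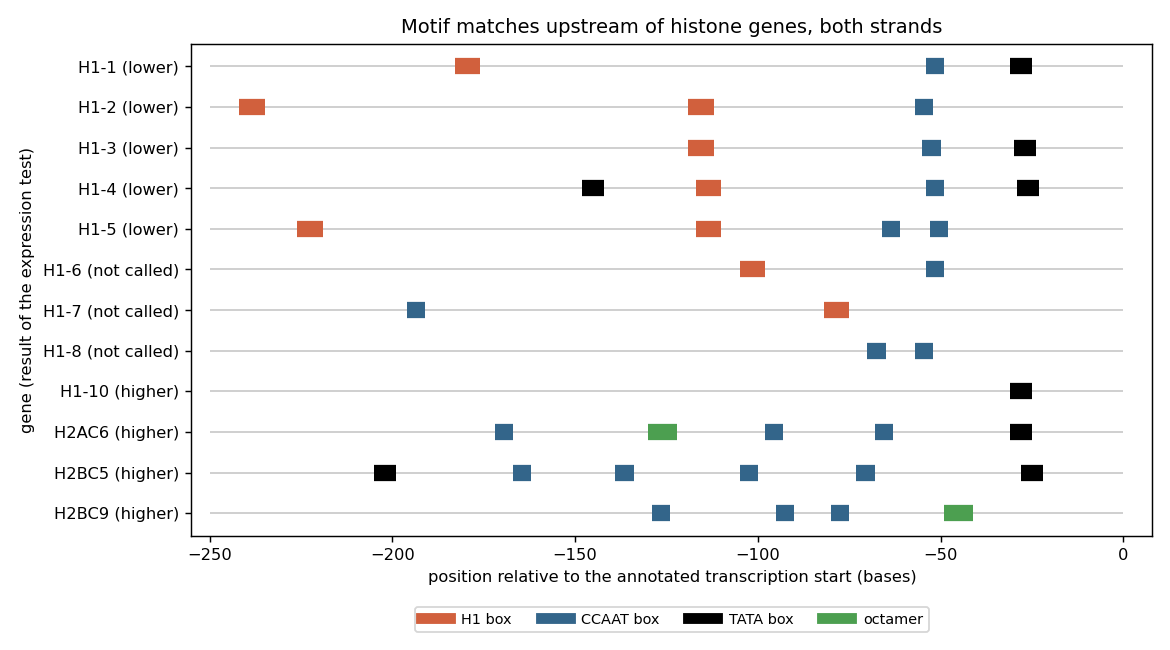
Exact motif matches in the 250 bases before the annotated start of 9 H1 genes and 3 core histone genes, as distance from the start in bases; labels give the result of the expression test. The H1 box stands at a like distance in H1-2, H1-3, H1-4 and H1-5, 117 to 119 bases before the start, and is missing from the H1-10, H2AC6, H2BC5 and H2BC9 lines.

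All 5 genes H1-1 to H1-5, the linker histones made with DNA replication in body cells, fell in the USP48-labelled arrays, with log2 differences from −0.65 to −0.46, while H1-10, also a linker histone, rose. Of the 37 core histone genes 7 rose (H2AC6, H2AC25, H2BC5, H2BC9, H2BC17, H3C6 and H4C8), 1 fell (H3C3) and 29 did not pass. Over the 46 histone genes the counts were 8 higher and 6 lower at a limma adjusted p under 0.05, against 15.7% of all genes higher, 14.1% lower and 29.8% called in either direction. The total of 14 called genes is therefore near the share of the whole array, and so is the 7 of 37 core genes higher. Counts by class describe genes chosen with earlier results known. No histone gene changed 2-fold. In bulk RNA, fewer cells in S phase and less histone mRNA per such cell cannot be told apart.

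The calls of the 8 rises depend on the scaling between arrays. Scaling each array on the hybridization controls lowers every log2 difference by 0.29 and moves the median of all genes from 0.05 to −0.24. The 5 falls of H1-1 to H1-5 and that of H3C3 were called on that scale too, whereas none of the 8 rises was: 0 histone genes were higher and 12 lower, against 4.84% and 37.9% of all genes. The shift makes every fall larger by construction, so the kept calls add no support to the falls. The 8 rises were positive on the hybridization scale, from 0.01 for H2BC17 to 0.48 for H2AC6. Their sign was fixed in advance and adds no support to the rises, since the smallest of them, 0.30, is larger than the shift of 0.29. Quantile normalization and median centring kept all 14 calls. The array medians ran only from 3.75 to 3.79, so median centring could hardly move any difference.

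**Figure D2:**
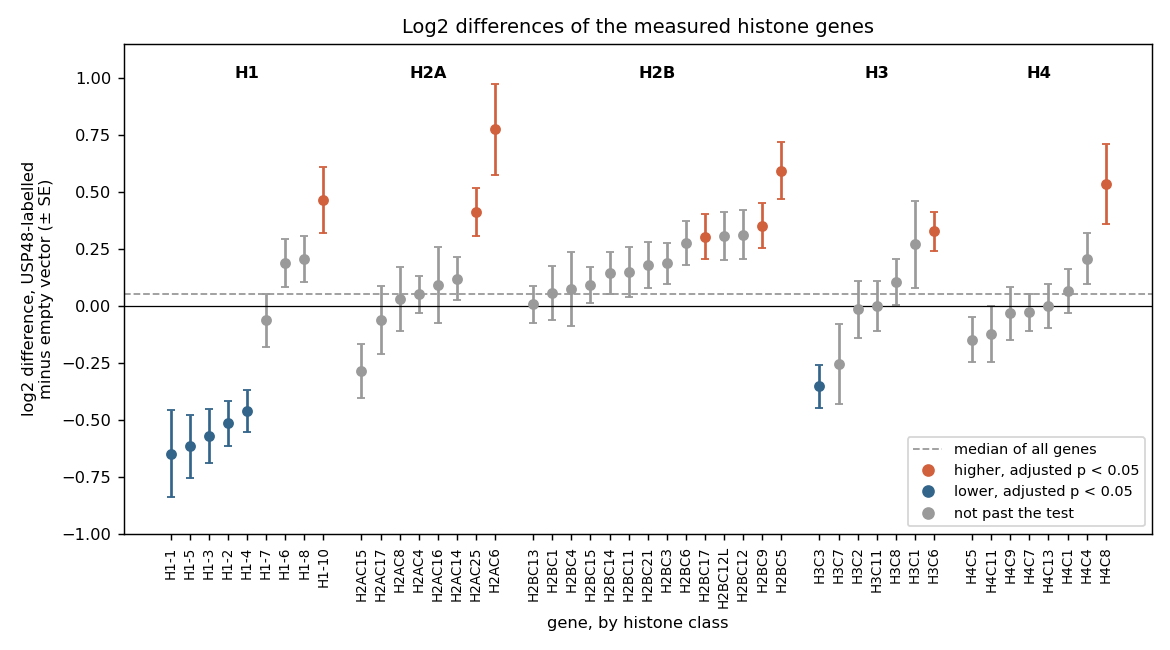
Log2 difference (USP48-labelled minus empty vector, limma estimate with its standard error, 3 arrays per group) for the 46 histone genes by class, coloured by the test. H1-1 to H1-5 sit between −0.65 and −0.46, and all 14 H2B points lie above 0 in the values as deposited. Of those 14 genes, 8 have both group means under the median of every array.

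Linker histones are taken first. H1-2, an abundant body-cell H1, read 7.31, 7.60 and 7.28 in the empty vector arrays and 6.88, 6.89 and 6.88 in the USP48-labelled arrays. The groups lay apart, and the fall of 0.52 on the log2 scale (1.43-fold, SE 0.10, limma adjusted p = 0.0027) kept its call with any 1 array left out. H1-3 read 6.46, 5.99 and 6.19 against 5.56, 5.68 and 5.68. It too was lower in every USP48-labelled array than in any control (log2 difference −0.57, SE 0.12, limma adjusted p = 0.0040).

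H1-4, the subtype often written H1E, read 4.08, 4.12 and 3.99 in the empty vector arrays and 3.64, 3.70 and 3.46 in the USP48-labelled ones. It fell by 0.46 on the log2 scale with groups apart (SE 0.09, limma adjusted p = 0.0033). H1-5, typical of dividing cells, read 3.80, 3.35 and 3.26 against 3.02, 2.75 and 2.79, with no overlap between groups, a fall of 0.62 on the log2 scale (SE 0.14, limma adjusted p = 0.0066). Both H1-5 means lie under the median of every array (the lowest being 3.75), so this is a difference of dim RMA values for which no fold is given. The calls of H1-3, H1-4 and H1-5 held with any 1 array left out.

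H1-1 read 4.99, 4.50 and 4.64 in the empty vector arrays and 4.40, 4.18 and 3.60 in the USP48-labelled arrays. It had the largest fall of the class but the widest spread (log2 difference −0.65, SE 0.19, limma adjusted p = 0.025), and the low value came from the array with the GAPDH difference of −1.31. Without that array the difference was −0.42 (adjusted p = 0.062), and the call was also lost without empty vector replicate 1 (−0.51, adjusted p = 0.108) or 3 (−0.68, adjusted p = 0.058).

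H1-10, the linker histone that does not depend on replication, moved the other way. It read 7.51, 7.47 and 7.27 in the empty vector arrays and 7.98, 8.14 and 7.53 in the USP48-labelled arrays, where replicate 3 barely cleared the highest control. The log2 difference was 0.47 (SE 0.14, limma adjusted p = 0.033), 0.17 (adjusted p = 0.40) with arrays scaled on the hybridization controls, and the call was lost on leaving out any array except USP48 replicate 3 (adjusted p = 0.058 to 0.118). Its antisense RNA, H1-10-AS1, was at 0.20 (adjusted p = 0.091) with groups that did not overlap. The germ-line genes did not pass: H1-6 was at 0.19, H1-8 at 0.21 and H1-7 at −0.06.

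Averaged over H1-1 to H1-5, and taken relative to the mean of the controls, the arrays stood at 0.16, −0.06 and −0.10 for the empty vector and at −0.47, −0.53 and −0.69 for USP48-labelled replicates 1, 2 and 3. Thus each of the USP48-labelled arrays was low, with replicate 3 lowest. The differences of these 5 genes, each read by 1 probe set, were negative under every alternative in which they were measured. Most alternatives could not turn them. Those on probe sets, fit, dim genes, replicate block or threshold return the same difference by construction, and the hybridization scale lowers it. After quantile normalization the 5 differences ran from −0.62 to −0.45, and with 1 array left out from −0.82 to −0.39. The number called was 4 without empty vector replicate 1, without empty vector replicate 3, without USP48 replicate 3 and at an adjusted p under 0.01, losing H1-1 each time, and 4 with the dimmest 33.3% of genes dropped, which removes H1-5.

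**Figure D3:**
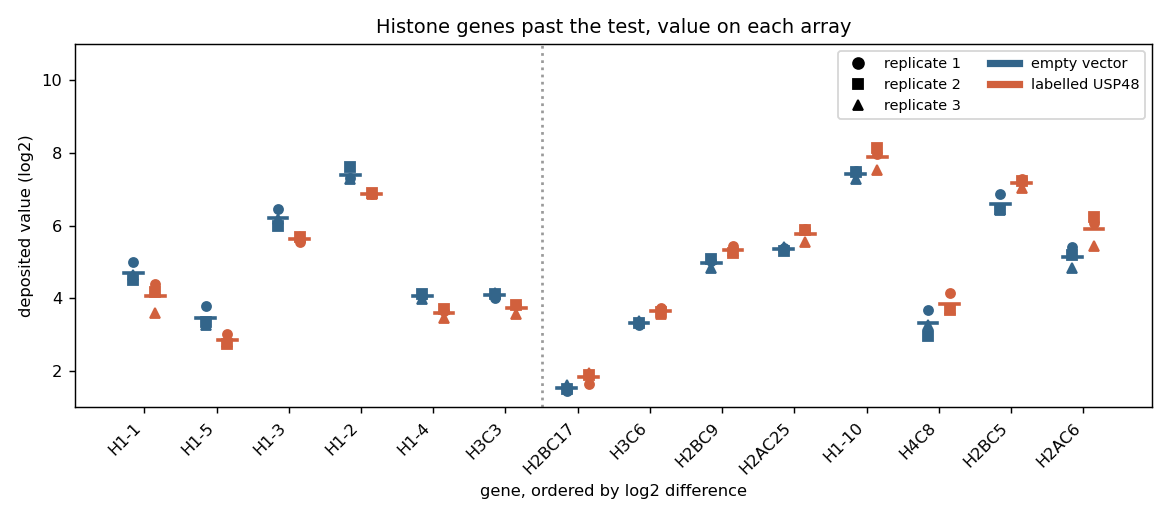
Deposited log2 value of the 14 called histone genes on each of the 6 arrays, with group means as bars; genes run from the lowest to the highest difference. The groups stand apart for every gene shown except H4C8, where 1 control array at 3.69 reaches the lowest USP48-labelled value.

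Among the H2A genes, which encode a core histone that carries the best known histone ubiquitin mark, 2 of 8 rose and 0 fell, beside 15.7% and 14.1% of all genes, with a class median of 0.07 against 0.05 over all genes. H2AC6 read 5.41, 5.20 and 4.82 in the empty vector arrays and 6.08, 6.24 and 5.44 in the USP48-labelled arrays. This was the largest difference of any histone gene measured, and the lowest USP48-labelled array barely cleared the highest control (log2 difference 0.78, 1.71-fold, SE 0.20, limma adjusted p = 0.014). Its call was lost on leaving out empty vector replicate 3 (adjusted p = 0.064), USP48 replicate 1 (0.055) or USP48 replicate 2 (0.058), or on the hybridization scale (0.48, adjusted p = 0.071). H2AC25 read 5.39, 5.31 and 5.40 against 5.91, 5.87 and 5.56 (log2 difference 0.41, SE 0.11, limma adjusted p = 0.013), and its second probe set was at 0.34, also called. That call was lost without empty vector replicate 2 or USP48 replicate 1 (adjusted p = 0.055 and 0.056). H2AC14, the brightest gene of the class, was at 0.12 and did not pass.

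All 14 H2B genes had a positive log2 difference in the values as deposited, from 0.01 to 0.59 with a median of 0.18, while 59.1% of all genes were positive; with arrays scaled on the hybridization controls 5 were positive, 9 negative, and the median was −0.11. Of the 14, 8 had both group means under the median of every array. The H2B genes called were H2BC5, H2BC9 and H2BC17. H2BC5 read 6.87, 6.46 and 6.44 in the empty vector arrays and 7.29, 7.22 and 7.03 in the USP48-labelled arrays (log2 difference 0.59, 1.51-fold, SE 0.12, limma adjusted p = 0.0045). Its second probe set was at 0.48 and also called, and it was the one rise that held with each array left out in turn and at an adjusted p under 0.01; on the hybridization scale it was at 0.30 (adjusted p = 0.104).

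H2BC9 read 5.02, 5.09 and 4.82 against 5.43, 5.25 and 5.31 (log2 difference 0.35, SE 0.10, limma adjusted p = 0.020), and lost its call without empty vector replicate 3 or USP48 replicate 1 (adjusted p = 0.077 and 0.076). H2BC17 read 1.45, 1.50 and 1.61 against 1.65, 1.88 and 1.94, values so far under the array median that no fold is given (log2 difference 0.30, limma adjusted p = 0.040). It was called without empty vector replicate 3 and without USP48 replicate 1, and not without any other array (adjusted p = 0.107 to 0.131), nor with an intensity trend in the fit (0.059). Just outside the threshold lay H2BC12L at 0.31 (adjusted p = 0.0504), H2BC12 at 0.31 (adjusted p = 0.0515) and H2BC6 at 0.28 (adjusted p = 0.054), all with groups that did not overlap. H2BC12, the brightest H2B gene and one known to yield polyadenylated mRNA, read 9.25, 9.04 and 9.22 against 9.68, 9.34 and 9.43. Probe sets marked _x_ by the manufacturer contain probes that can pair with other transcripts. Those of H2BC5, H2BC9, H2BC6, H2BC12L, H2AC14, H3C8 and H4C11 are among them. H2B genes are near-identical, so the H2B sets with this mark are not independent readings of separate genes. The sets used for H1-10, H2AC6 and H4C8 carry another mark, _s_, for probes shared between transcripts, so their differences may not be particular to those genes.

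Of the H3 genes 1 of 7 rose and 1 fell, and of the H4 genes 1 of 8 rose and 0 fell. Over all genes 15.7% rose and 14.1% fell. H3C3 read 4.00, 4.11 and 4.16 in the empty vector arrays and 3.82, 3.81 and 3.58 in the USP48-labelled arrays, the one core histone gene that fell (log2 difference −0.35, SE 0.10, limma adjusted p = 0.018). It lost its call without USP48 replicate 3 (adjusted p = 0.051) or empty vector replicate 2 or 3 (0.061 and 0.066). H3C6 read 3.26, 3.32 and 3.38 against 3.74, 3.62 and 3.58, both means under the array median (log2 difference 0.33, SE 0.09, limma adjusted p = 0.014). The call was lost when its probe sets were averaged (0.20, adjusted p = 0.068), without empty vector replicate 1 (adjusted p = 0.059) or without USP48 replicate 1 (0.058). H3C8, the brightest H3 gene, was at 0.11 and did not pass.

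H4C8 read 3.69, 2.97 and 3.26 in the empty vector arrays and 4.14, 3.69 and 3.70 in the USP48-labelled arrays, so the groups overlapped by a tie (log2 difference 0.53, SE 0.18, limma adjusted p = 0.042). Leaving out any array but empty vector replicate 1 ended the call (adjusted p = 0.052 to 0.165), and its second probe set was at 0.42, called. Adjusted over all probe sets instead of genes, H4C8 and H2BC17 missed the threshold (adjusted p = 0.051 and 0.057). H4C11, the brightest H4 gene, was at −0.12 and did not pass. The medians of the H3 and H4 classes were −0.00 and −0.01 as deposited and −0.29 and −0.31 on the hybridization scale.

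**Figure D4:**
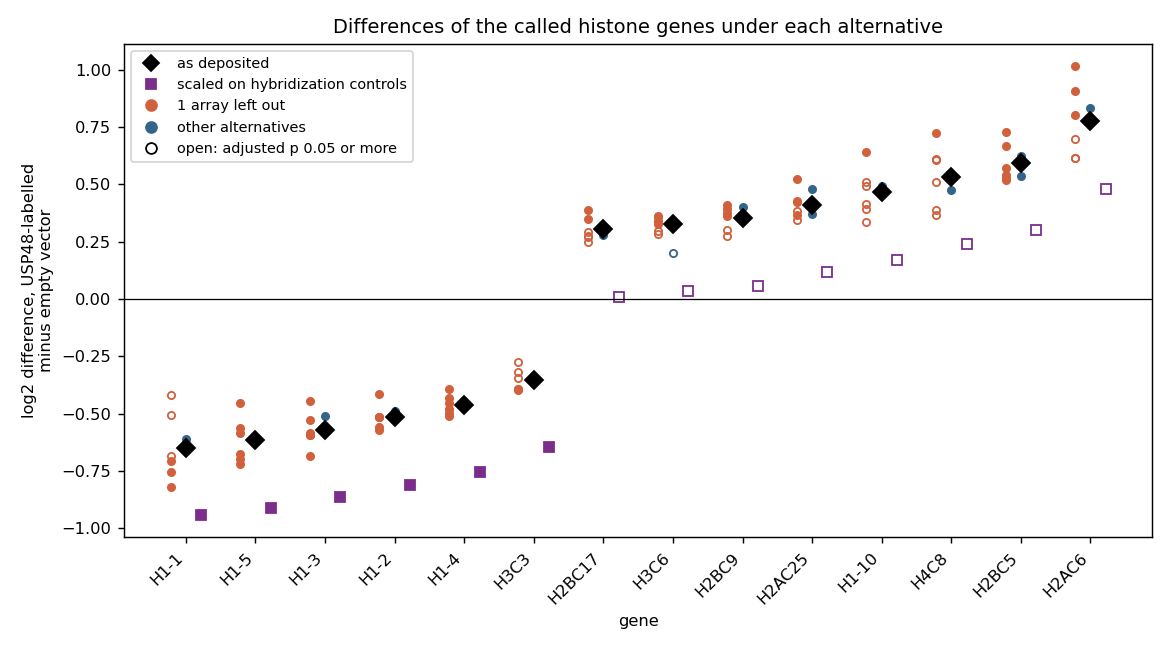
Log2 difference of the 14 called histone genes as deposited, on the hybridization control scale, with 1 array left out and under the other alternatives; open symbols did not pass at an adjusted p of 0.05. Every hybridization-scaled symbol of the 6 lower genes is filled and every one of the 8 higher genes is open. That scale lowers every difference by 0.29 by construction.

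Groups that did not overlap were counted as a second view. Of the 46 histone genes 12 were higher in every USP48-labelled array than in any control and 7 lower, against 23.8% and 19.1% of all genes. Of those 12, 8 were H2B genes, and of the 7, 5 were H1-1 to H1-5. Of the 46 genes, 20 had both group means under the median of every array. None of the 7 genes with several probe sets had them called in opposite directions, and the pseudogenes and the antisense RNA gave 0 calls by limma in either direction.

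Along chromosome 6, where 40 of the 46 genes lie, neighbouring genes could differ in direction. In the order of the measured genes H2AC6 (0.78) is followed by H1-4 (−0.46) and then by H2BC5 (0.59). H1-3 (−0.57) has H3C6 (0.33) on one side and the uncalled H4C7 on the other. H1-2 is next to H3C3, which also fell, and to the uncalled H1-6, while H1-1 and H1-5 have uncalled genes on both sides. The largest group of neighbours there, 26 measured genes from H2BC1 to H4C8, held 5 higher and 5 lower genes. Over all genes 15.7% were higher and 14.1% lower. The group of 3 around H2BC12 held none, and the 13 from H4C10P to H2BC17 held 1 of each, H2BC17 and H1-5. The other called genes were H2AC25 on chromosome 1 and H1-10 on chromosome 3.

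**Figure D5:**
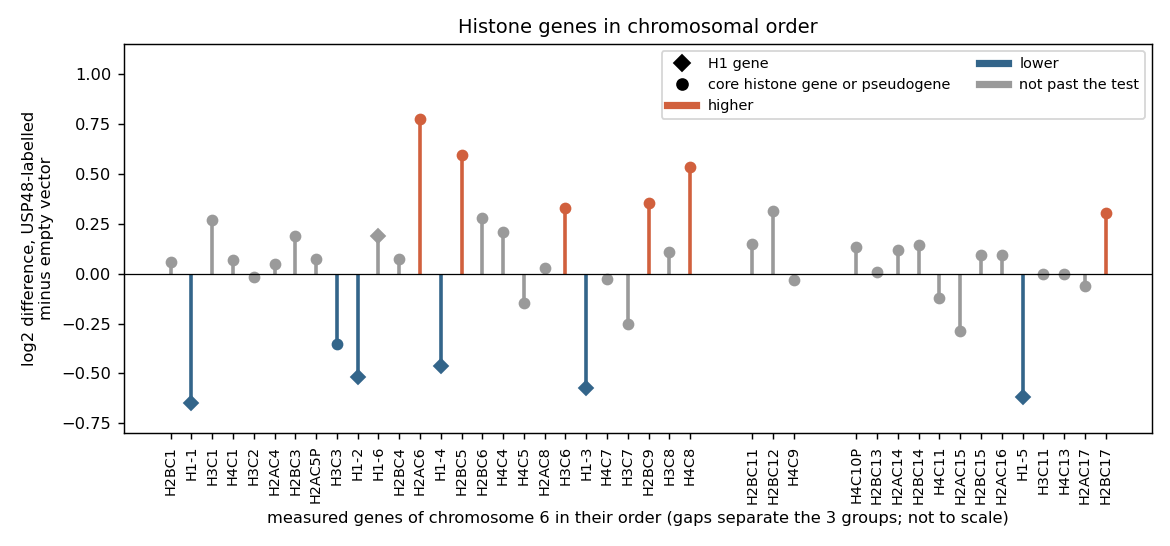
Log2 difference of the 42 measured genes of chromosome 6, pseudogenes included, in chromosomal order and not to scale; diamonds are H1 genes and colours give the test. H1-4 at −0.46 stands between H2AC6 at 0.78 and H2BC5 at 0.59, and no other lower H1 gene has a higher gene on both sides.

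A further 20 probe sets name several histone genes, mostly near-identical copies of one class, and belong to no single gene. Of these 6 were higher and 1 lower, against 10.6% and 13.8% of all probe sets. The brightest, which names 14 H4 genes, read 12.15, 12.17 and 12.11 in the empty vector arrays and 11.51, 11.75 and 11.63 in the USP48-labelled arrays (log2 difference −0.52, limma adjusted p = 0.0023 over all probe sets). A dimmer one that names the same 14 genes read 5.11, 4.80 and 4.87 against 5.69, 5.60 and 5.31 (log2 difference 0.60, adjusted p = 0.0046). H4 signal thus differed in direction between probe sets with one annotation. Of the other higher ones, 3 name H2B genes only. The remaining 2 name H3 genes together with the H2A gene H2AC7, and 1 of these, with 11 symbols, had the largest difference of the 20 at 0.88.

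Genes that make, load or mark histones were counted from lists chosen with earlier results known. Each count below stands against 15.7% of all genes higher and 14.1% lower as deposited (median 0.05), and 4.84% higher and 37.9% lower on the hybridization scale (median −0.24). Of 23 genes for histone mRNA transcription and 3′ end processing, 6 rose and 7 fell (median −0.08; 1 and 13 on the hybridization scale, median −0.37). The exonuclease ERI1, which trims histone mRNA, was at −0.91 (−0.52 when its probe sets were averaged) and the scaffold SYMPK at −0.50, while LSM11, a subunit of the U7 snRNP that cuts histone mRNA, was at 0.71 and the cleavage factor CSTF2T at 0.51. Averaging all probe sets of a gene turned LSM11 to −0.39 (adjusted p = 0.0027) and ended the calls of CSTF2T and SYMPK (adjusted p = 0.40 and 0.71), and CSTF2T was not called on the hybridization scale (adjusted p = 0.23). NPAT, the coactivator of histone genes, was at −0.33 and the stem-loop binding protein SLBP at −0.25, both called, NPAT not when its probe sets were averaged (adjusted p = 0.052); these genes were picked after their values were seen.

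Of 20 histone chaperones 2 rose and 10 fell, with a median of −0.30 (0 and 14 on the hybridization scale, median −0.59), against 15.7% and 14.1% of all genes as deposited. ATRX, which deposits H3.3 with DAXX, was at −1.53, ASF1B, an H3-H4 chaperone of dividing cells, at −0.84, HJURP, which loads CENP-A, at −0.82 and the FACT subunit SUPT16H at −0.67 (−0.45 when averaged over probe sets). Of 8 measured replacement and variant histones 0 rose and 3 fell (median −0.14), where 14.1% of all genes fell: CENPA, the centromeric H3, at −0.78, H3-3A at −0.54 and H2AZ2 at −0.38 (−0.63 averaged over probe sets). The call of H3-3A was lost on leaving out empty vector replicate 2 (adjusted p = 0.0502). On the hybridization scale 6 of the 8 fell, beside 37.9% of all genes.

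Markers of S phase, the stage in which most of these histones are made, were lower beside the H1 genes. Of 19 measured, 0 rose and 11 fell, and all 19 differences were negative (median −0.35; 19 fell on the hybridization scale, median −0.65). Of all genes 14.1% fell as deposited and 37.9% on the hybridization scale. POLA1, a subunit of DNA polymerase alpha, was at −0.78, the helicase subunit MCM5 at −0.73, GINS2 at −0.62 (−0.28 averaged over probe sets) and the reductase subunit RRM2 at −0.57. The summed log2 level of the list was 170.8 to 171.0 in the empty vector arrays and 162.7 to 164.7 in the USP48-labelled arrays, and its part in the histone differences was not tested. Of 13 enzymes that add or remove ubiquitin on H2A and H2B, 1 rose and 3 fell (median −0.06; 0 and 7 on the hybridization scale), a share called near the 29.8% of all genes. USP22, which removes ubiquitin from H2B, was at −1.31 (−0.22 when its probe sets were averaged), MYSM1 at −0.61, the H2B ligase RNF20 at −0.27 and its partner UBE2A at 0.36. Averaging probe sets ended the calls of MYSM1 (−0.11, adjusted p = 0.43) and UBE2A (−0.03, adjusted p = 0.80), and UBE2A was not called on the hybridization scale, nor on leaving out empty vector replicate 3 or USP48 replicate 1 (adjusted p = 0.63, 0.052 and 0.050). RNF20 was called with USP48 replicate 3 left out, but not with any other array left out (adjusted p = 0.061 to 0.124) or after quantile normalization (0.062).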

How the data were processed

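Each array has 1 deposited log2 value per probe set, and the submitters' processing notes name RMA (version and settings not given in the sources used here). They ran from 0.19 to 13.2, with array medians of 3.75 to 3.79, and detection calls were not used. Of 54675 probe sets, 41091 named 1 symbol in the platform annotation, 1801 several and 11721 none, and 62 were controls; 41037 matched RefSeq (GRCh38.p14) by gene ID, with 0 symbols changed. The brightest probe set per gene by mean over 6 arrays was used, for 19775 genes.

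A two-sided moderated test from limma (version 3.58.1, R 4.3.3), adjusted by Benjamini-Hochberg across the whole gene table, called genes at 0.05; probe set tests were adjusted over all probe sets. Tested on simulated data drawn from the 19775 real gene means, with 200 genes changed, it recovered 91% of changes of 1 and 47% of changes of 0.5 on the log2 scale, and called 6 unchanged genes. The simulated noise was independent between genes, and in the real data a far larger share, 29.8% of genes, was called. These rates therefore need not hold for the real data. Named were all called histone genes, all H1 genes, the brightest gene per class and up to 4 called genes per list. The genes and lists were chosen with earlier results of these data known. Alternatives were quantile normalization, median centring, hybridization control scaling, a robust fit with an intensity trend and dropping 33.3% of genes as dim. Others were averaged probe sets, each probe set alone, a replicate block, each array left out and an adjusted p under 0.01. In a last one, _x_ probe sets were left out for genes that had another. H2BC5, H2BC6, H2BC9 and H2BC12L have only _x_ sets and kept them, so their values could not change there. Figures used matplotlib 3.10.9 in Python 3.11.15.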

Additional observations from a re-analysis of the deposited data

How the results depend on the processing

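Of the 50 genes chosen by symbol, 8 were called higher and 6 lower, beside 15.7% and 14.1% of all genes. On the hybridization control scale the counts were 0 and 13, and at an adjusted p under 0.01 they were 1 and 4. With 1 array left out, 2 to 8 were higher (2 without USP48 replicate 1, 4 without empty vector replicate 2 and 4 without empty vector replicate 3) and 4 to 6 lower; those fits test fewer arrays. The other alternatives gave 6 to 11 higher and 5 to 7 lower. Of the 82 genes of the 5 lists, counted once each, 9 were higher and 33 lower, beside the same shares of all genes. On the hybridization control scale these became 1 and 58, where 4.84% of all genes were higher and 37.9% lower. At a limma adjusted p under 0.01, 4 of the list genes were higher. With 1 array left out, 5 to 8 were higher (5 without empty vector replicate 2 or 3 or USP48 replicate 1) and 27 to 32 lower. Some values changed sign. On the hybridization control scale the number of histone genes with a positive difference went from 29 to 10 of 46. Among genes whose own log2 difference is printed above, the uncalled H1-6 (−0.11), H1-8 (−0.088), H1-10-AS1 (−0.098), H2AC14 (−0.17), H2BC6 (−0.017) and H3C8 (−0.19) turned there. Genes named above without a printed difference turned as well, among them H2BC1, H4C1, H2AC5P, H4C10P, ALB, SPARC and DAXX. With 1 array left out, H1-7 ran from −0.18 to 0.042, the latter without USP48 replicate 1. Averaging probe sets turned H1-7 to 0.14, LSM11 to −0.39 and UBE2A to −0.029. The cause was not tested, beyond the lowering of every difference by 0.29 that the hybridization scale makes by construction. With the replicate number as a block, 11 were higher and 7 lower, and no call was lost. Deviations of same-numbered arrays correlated at 0.00, 0.17 and 0.02 over genes, so the numbers were not taken to pair the arrays. With 3 arrays per group and no detection calls, small differences of dim probe sets are the least certain.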
